A study of Mus musculus with 15 samples.

Results

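The dermal adipocyte genes are 10 genes whose products mark the fat cells of the lower skin: Adipoq, Retn, Lep, Cfd, Plin1, Lpl, Cidec, Fabp4, Pparg and Adrb3. They were taken by gene symbol as 10 rows of a count table of 55487 genes, and all 10 passed the filter on low counts in every comparison. The libraries were QuantSeq 3′ libraries of total RNA from skin of 3-week-old C57BL/6 mice, with 5 libraries in each of 3 groups. The WT group were littermates with loxP-flanked Otulin alleles and no Cre. The other groups were non-lesional skin and lesional skin of Otulin fl/fl K14-Cre mice, called OTULIN E-KO, in which Cre is driven by the keratin 14 promoter of keratinocytes, so that the adipocytes themselves are not the targeted cells. OTULIN is the enzyme that cleaves linear ubiquitin chains. All WT libraries are labelled non-lesional. The labels do not name the body site, nor do they tie lesional to non-lesional samples by mouse. Libraries are called below by group and by the number in their labels, which the groups do not share.

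White adipocytes lie in a sheet under the dermis and around hair follicles. They store triglyceride in a single droplet coated by perilipin and CIDE proteins, fill it with fatty acids that lipoprotein lipase releases from circulating lipoproteins, and empty it when adrenergic receptors signal. PPARγ, working with C/EBP factors, turns on most of this programme, and the cells secrete adiponectin, resistin, leptin and factor D. The layer in mouse skin grows and shrinks with the hair cycle.

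A library held 1962604 to 2567138 counts in total, of which the 10 genes took 0.136% in lesional 11 to 0.399% in WT 13. Otulin was at 12.3 to 28.2 CPM (CPM are counts scaled to a common library size after TMM normalisation) in WT, 21.3 to 30.6 in non-lesional and 18.8 to 27.2 in lesional libraries. This is whole skin, and whether the counted 3′ end lies outside the deleted part is not given in the sources used here, so the gene does not check the labels. Lesional 2 and lesional 11 stood apart from the other 13 libraries. Krt16, a keratin of stressed and hyperplastic epidermis, was at 899 and 2890 CPM there and at 4.26 to 97.6 CPM elsewhere, and S100a8, a calprotectin subunit of neutrophils and of inflamed keratinocytes, was at 1280 and 2420 CPM against 1.31 to 115 CPM. In lesional 5, 8 and 14, Krt16 was at 7.11, 12.4 and 22.4 CPM and S100a8 at 4.57, 2.41 and 4.38 CPM. Differences of lesional skin are therefore also given without lesional 2 and 11 for part of the genes. That setting takes away the lesional libraries with high levels of these markers, so it is not a check on strongly inflamed skin.

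The stretch of 250 bases upstream of the start was read from RefSeq windows (GRCm38.p6) for 7 of the 10 genes. The windows below are those of Adipoq, of 3 genes that followed Adipoq closely across libraries (Cfd, Plin1 and Retn) and of Lep and Pparg, whose correlation with Adipoq was lower. Each is written 5′ to 3′ on the strand of its gene, and capitals mark a CCAAT box (CCAAT), a C/EBP-type word (TTGCNNAA) or a TATA box (TATAAA) on either strand.
Adipoq, chr16:23146286-23146535, plus strand: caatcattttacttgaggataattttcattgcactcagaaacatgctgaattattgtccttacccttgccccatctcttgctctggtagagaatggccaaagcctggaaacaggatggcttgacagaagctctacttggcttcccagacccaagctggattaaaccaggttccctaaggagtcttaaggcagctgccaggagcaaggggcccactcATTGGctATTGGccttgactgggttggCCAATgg
Cfd, chr10:79890603-79890852, plus strand: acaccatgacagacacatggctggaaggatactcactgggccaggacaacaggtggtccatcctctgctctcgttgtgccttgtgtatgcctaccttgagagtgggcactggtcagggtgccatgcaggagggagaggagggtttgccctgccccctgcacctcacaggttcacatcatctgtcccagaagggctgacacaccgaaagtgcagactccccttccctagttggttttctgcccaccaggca
Plin1, chr7:79732777-79733026, minus strand: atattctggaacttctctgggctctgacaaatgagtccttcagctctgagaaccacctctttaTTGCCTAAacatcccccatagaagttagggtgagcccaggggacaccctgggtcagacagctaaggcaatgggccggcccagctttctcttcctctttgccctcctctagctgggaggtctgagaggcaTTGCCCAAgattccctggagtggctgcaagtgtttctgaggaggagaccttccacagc
Retn, chr8:3655520-3655769, plus strand: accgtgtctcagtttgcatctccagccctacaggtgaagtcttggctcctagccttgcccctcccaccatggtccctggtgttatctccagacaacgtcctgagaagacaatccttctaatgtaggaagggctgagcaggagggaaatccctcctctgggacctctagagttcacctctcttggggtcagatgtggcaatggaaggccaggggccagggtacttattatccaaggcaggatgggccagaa
Lep, chr6:29059971-29060220, plus strand: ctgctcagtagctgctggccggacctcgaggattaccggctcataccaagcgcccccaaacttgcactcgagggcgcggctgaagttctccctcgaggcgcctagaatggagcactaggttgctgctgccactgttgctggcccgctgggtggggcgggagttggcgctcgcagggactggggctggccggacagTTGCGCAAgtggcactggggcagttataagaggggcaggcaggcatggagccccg
Pparg, the most downstream of its 3 starts, chr6:115421816-115422065, plus strand: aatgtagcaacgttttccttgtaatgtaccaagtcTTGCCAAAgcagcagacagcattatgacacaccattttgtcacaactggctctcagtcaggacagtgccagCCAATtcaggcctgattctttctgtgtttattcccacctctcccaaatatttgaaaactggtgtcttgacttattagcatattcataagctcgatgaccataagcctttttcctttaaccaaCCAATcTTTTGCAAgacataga
The C/EBP-type word was found 55 bases before the start of Lep (the word reads the same on both strands), 58 and 187 bases before that of Plin1, and 16 and 215 bases before this start of Pparg. Adipoq held 3 CCAAT boxes, 7, 27 and 34 bases before its start. The windows of Cfd and Retn held none of the 3 words, and of the other windows 1 of those of Cidec, which also followed Adipoq, held the C/EBP-type word. No marked words overlapped apart from the palindrome in Lep. Of the 10 windows of the 7 genes, 4 held the C/EBP-type word, 3 a CCAAT box and 1 a TATA box. Of all 32851 windows of the same length, 9.56% held the C/EBP-type word, 33.8% a CCAAT box and 12.4% a TATA box. A direct repeat of nuclear receptor half-sites spaced by 1 base (DR1), the element PPARγ binds with RXR, was in 0 of the 10 windows and in 0.338% of all windows.

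The levels of the 10 genes spanned 2 orders of magnitude. On the CPM scale, which in 3′ libraries counts about 1 fragment per transcript and needs no division by length, the mean over 15 libraries was highest for Fabp4 (1090 CPM), the cytosolic fatty acid carrier of adipocytes and of capillary endothelium. Cfd, which encodes factor D (adipsin), the protease that starts the alternative complement pathway, followed at 659 CPM. Lpl (lipoprotein lipase) was at 404 CPM, Adipoq (adiponectin) at 154 CPM, Cidec (the droplet fusion protein) at 99.1 CPM, Plin1 (the droplet coat that gates lipolysis) at 57.2 CPM and Retn (resistin) at 34.4 CPM. Each of these 7 lay above the next in 14 or all 15 libraries. Adrb3, the adrenergic receptor of adipocytes, and Pparg, the master regulator of the lineage, did not differ in order (16.5 and 16.4 CPM, Adrb3 higher in 7 of 15 libraries). Lep (leptin) was lowest at 10.9 CPM and below Pparg in 12 of 15 libraries. At this depth Lep rested on 7 to 58 counts per library and Pparg on 3 to 66.

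On GRCm38, with GENCODE gene bounds, Adipoq lies at chr16:23146536-23158028, Retn at chr8:3655770-3660110, Lep at chr6:29060220-29073877, Cfd at chr10:79890853-79892655, Lpl at chr8:68880491-68907448 and Pparg at chr6:115360951-115490399, all on the plus strand. Plin1 lies at chr7:79720218-79732903, Cidec at chr6:113424634-113435760, Fabp4 at chr3:10204088-10208576 and Adrb3 at chr8:27225776-27250616, all on the minus strand. Reads counted here fall on exons, in 3′ libraries mostly near the 3′ end of the transcript. The exons of Adrb3 overlap those of Gm45470 on the other strand, and no strand setting is given for the counting, so that reads of the pair cannot be told apart. No other gene of the 10 shares exon bases with another gene.

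All 10 genes were counted in every library. In whole skin this does not test the adipocyte label, since it does not show which cells the RNA came from. Ucp1, the uncoupling protein of brown fat, had at most 2 counts in any library, while other genes of the thermogenic list, such as Cidea with 98 to 236 counts, were counted in all. In bulk skin, fewer adipocytes and less RNA of these genes per adipocyte cannot be told apart.

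**Figure D1:**
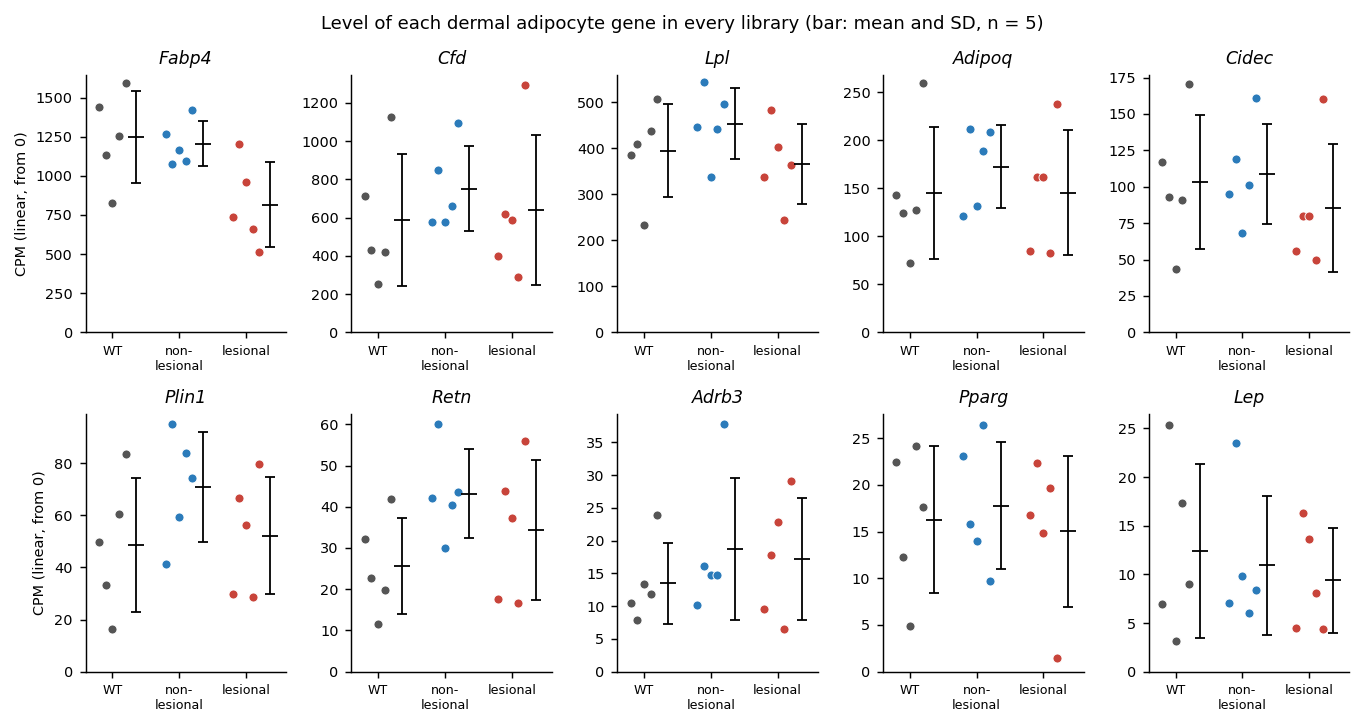
Level of each of the 10 genes in CPM (vertical axes, linear from 0) in the 5 WT, 5 non-lesional and 5 lesional libraries, one point per library, with the mean and SD beside each group. The groups overlap for all 10 genes, and lesional libraries reach the lowest levels of Fabp4 (511 CPM) and Pparg (1.46 CPM).

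Between non-lesional OTULIN E-KO and WT skin no adipocyte gene passed the corrected test, and resistin had the largest difference. Retn was at 32.2, 22.8, 11.6, 19.9 and 41.9 CPM in WT 1, 4, 7, 10 and 13, and at 42.1, 60.1, 29.95, 40.3 and 43.5 CPM in non-lesional 3, 6, 9, 12 and 15. Of the 5 non-lesional libraries 3 were above every WT library, but the groups overlapped. The mean was 43.2 ± 10.9 CPM (SD, n = 5) against 25.7 ± 11.7 CPM (SD, n = 5). This was a difference of 0.74 on the log2 scale (SE 0.276, 95% interval 0.143 to 1.33), 1.66-fold. Its unadjusted p was 0.0187 and its adjusted p 0.9998 with edgeR's quasi-likelihood test, and the two-sided exact permutation test of log2 CPM gave p = 0.0556. Retn passed the adjusted threshold in 1 alternative, the same test without a filter on low counts (adjusted p = 0.0247), and in no other (lowest adjusted p 0.371).

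Of the 10 genes 8 had a higher mean in non-lesional than in WT skin on the fitted log2 scale. Their median difference was 0.22, against -0.00273 over all 13021 genes tested. No gene had an adjusted p under 0.05 (0% of all genes, with 411 genes at an unadjusted p under 0.05). At an unadjusted p under 0.05, 1 of 10 was higher (1.85% of all genes) and 0 of 10 lower (1.31%). Groups that did not overlap were seen for 0 of 10 genes, beside 0.384% of all genes in the higher and 0.276% in the lower direction. Plin1, at 70.8 ± 21.1 against 48.7 ± 25.6 CPM (SD, n = 5 each), differed by 0.53 (SE 0.385), and Adrb3 by 0.45 (SE 0.358). The smallest difference was that of Fabp4, at -0.05 with a 95% interval from -0.36 to 0.261. The intervals of 9 of the 10 genes included 0, and the widest, that of Lep, spanned 2.31 log2 units. Differences such as the one for Plin1 are thus within the spread between libraries. The median moved with single libraries, to 0.066 without WT 7 and 0.45 without WT 13, and Adrb3 differed by 0.044 without non-lesional 15. All 4 erythrocyte genes also lay above 0 here, with a median of 0.73 and none past an unadjusted p of 0.05, and their part in the adipocyte values was not tested.

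Lesional skin had a lower mean of Fabp4 than both other groups. Fabp4 was at 1437, 1130, 826, 1253 and 1593 CPM in WT 1, 4, 7, 10 and 13. It was at 1267, 1078, 1167, 1096 and 1422 CPM in non-lesional 3, 6, 9, 12 and 15, and at 739, 1203, 962, 659 and 511 CPM in lesional 2, 5, 8, 11 and 14. Of the 5 lesional libraries, 4 were below every non-lesional library and 3 below every WT library, while lesional 5 lay within the range of both. The lesional mean was 815 ± 271 CPM (SD, n = 5), the WT mean 1248 ± 294 CPM and the non-lesional mean 1206 ± 142 CPM (SD, n = 5 each).

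Against WT this was a log2 difference of -0.62 (SE 0.239, 95% interval -1.13 to -0.103), a level 0.653 times as high. The unadjusted p was 0.0219, the adjusted p 0.9256 with edgeR's quasi-likelihood test, and the exact permutation p 0.0476. Against non-lesional skin it was -0.56 (SE 0.209, 95% interval -1.01 to -0.115), a level 0.677 times as high, with an unadjusted p of 0.0173, an adjusted p of 0.9725 in the same test, and an exact permutation p of 0.0317. The comparisons share the lesional libraries. Fabp4 failed the correction over all genes in both, and in every alternative run (lowest adjusted p 0.591 against WT and 0.632 against non-lesional skin). The sign of the difference was negative in all of them. Without lesional 2 and 11 it was -0.49 against WT (unadjusted p = 0.0929) and -0.43 against non-lesional skin (unadjusted p = 0.0675) in edgeR's test. Without lesional 14 it was -0.49 and -0.44.

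The other genes had no unadjusted p under 0.05 between lesional and WT skin with all libraries in the fit. Adiponectin was at 143, 124, 72.5, 128 and 259 CPM in WT 1, 4, 7, 10 and 13. In lesional 2, 5, 8, 11 and 14 it was at 84.3, 162, 162, 82.2 and 237 CPM. The fitted difference was -0.0036 on the log2 scale (SE 0.357, 95% interval -0.785 to 0.778), and a change within that interval was not detectable in these libraries. Cfd differed by 0.11 (SE 0.451), Plin1 by 0.09 (SE 0.406), Lpl by -0.11 (SE 0.212), Cidec by -0.28 (SE 0.371), Lep by -0.39 (SE 0.522), Retn by 0.40 (SE 0.386) and Adrb3 by 0.34 (SE 0.39). The fitted difference was above 0 for 4 of the 10 genes, and their median was -0.06, against -0.0034 over the 12918 genes tested. It changed sign with single libraries, from -0.21 without WT 7 to 0.15 without WT 13. An adjusted p under 0.05 was reached by 0 of 10 (0% of all genes, with 621 genes at an unadjusted p under 0.05). At an unadjusted p under 0.05, Fabp4 alone was lower (1.56% of all genes) and no member was higher (3.24%). No member had groups that did not overlap (0.449% of all genes higher and 0.271% lower). Without lesional 2 and 11, Retn differed by 0.81 (unadjusted p = 0.023, adjusted p = 0.9994) and Adrb3 by 0.77 (unadjusted p = 0.0234, adjusted p = 0.9994) in edgeR's test. Cfd then differed by 0.495, Plin1 by 0.457, Lep by -0.105 and Pparg by -0.347 (-0.124 with all libraries), none with an unadjusted p under 0.05. In that fit 7 of 10 lay above 0 and 2 of 10 were higher at an unadjusted p under 0.05 (1.42% of all genes). Markers of other tissues lay above 0 there as well: 13 of 13 skeletal muscle genes with a median of 0.381, and 3 of 4 erythrocyte genes with a median of 0.49. Their part in the adipocyte values was not tested.

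Against non-lesional skin all 10 fitted differences were below 0, from -0.56 for Fabp4 to -0.12 for Adrb3, with a median of -0.28 beside 0.00305 over the 12864 genes tested. The median was -0.46 without lesional 14 and -0.18 without lesional 11. These genes move together from library to library, so their common sign is not 10 separate results. Below 0 as well were 4 of 4 erythrocyte genes, with a median of -0.45, and 6 of 7 endothelial genes, with a median of -0.25, none past an unadjusted p of 0.05, and their part in the adipocyte values was not tested. An adjusted p under 0.05 was reached by 0 of 10 (0% of all genes, with 543 genes at an unadjusted p under 0.05). At an unadjusted p under 0.05, Fabp4 alone was lower (1.33% of all genes) and no member was higher (2.89%), and no member had groups that did not overlap (0.264% higher and 0.295% lower). Plin1 differed by -0.44 (SE 0.302), Cidec by -0.35 (SE 0.313), Retn by -0.33 (SE 0.314) and Lpl by -0.31 (SE 0.181). Without lesional 2 and 11 the median became 0.02 against non-lesional skin and 0.21 against WT. Against non-lesional skin Plin1 then differed by -0.0717, Cidec by -0.032, Retn by 0.0767 and Lpl by -0.121.

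**Figure D2:**
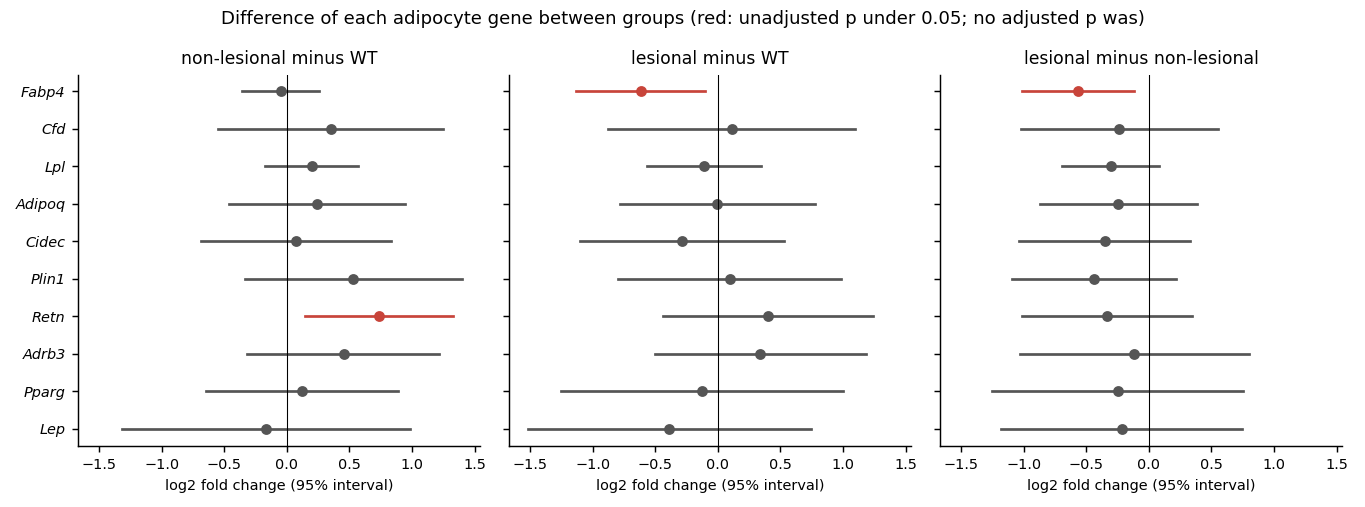
Fitted log2 fold change of each gene (point) with its 95% interval (line) in the 3 comparisons of 5 with 5 libraries. Only Retn between non-lesional and WT skin and Fabp4 in both comparisons of lesional skin have intervals that leave out 0, and no adjusted p passed 0.05.

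What set the libraries apart was a shared level of most of these genes, larger within groups than between them. In WT skin, WT 7 was lowest for 9 of the 10 genes (all but Adrb3), and WT 13 was highest for 8 of 10. Adipoq thereby differed 3.57-fold and Plin1 from 16.6 to 83.4 CPM within WT. Cfd was at 711, 430, 252, 419 and 1125 CPM in WT 1, 4, 7, 10 and 13, at 576, 847, 576, 659 and 1096 CPM in non-lesional 3, 6, 9, 12 and 15, and at 399, 617, 588, 288 and 1295 CPM in lesional 2, 5, 8, 11 and 14. Each group thus had a library above 1000 CPM of Cfd.

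The SD of log2 CPM within groups was 0.579 for Adipoq, more than that of 90.9% of the 967 genes of equal or higher level. For Retn (0.625), Cidec (0.612), Plin1 (0.689) and Adrb3 (0.699) these shares were 94.6%, 93.9%, 96.2% and 96%, and for Lep (0.867) and Pparg (0.988) they were 98.2% and 99.2%. Lep and Pparg rest on few counts and were set only against genes of equal or higher level (10269 and 8673). Counting error thus adds to their SD and shares, and it was not subtracted. Lpl (0.354) and Fabp4 (0.36) varied less, with shares of 59.1% and 36.4%. The median over all genes tested was 0.353. For Cfd (0.706) it was 81.1% of 111 genes.

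Across all 15 libraries, Cfd followed Adipoq with a Pearson r of 0.943 and a Spearman rho of 0.943 on log2 CPM. Plin1 (r = 0.927, rho = 0.914), Cidec (r = 0.911, rho = 0.836), Retn (r = 0.894, rho = 0.807), Lpl (r = 0.783, rho = 0.668) and Adrb3 (r = 0.754, rho = 0.839) did so as well. The permutation test with 100000 resamples gave raw p-values of 1e-05 for Cfd and Plin1, the smallest it can give, 3e-05 for Cidec, 2e-05 for Retn, 0.00069 for Lpl and 0.00126 for Adrb3. Adjusted over the 26 relations computed with Adipoq (9 genes and 17 list scores), they were between 0.00013 for Cfd and Plin1 and 0.00409 for Adrb3, and those for rho between 0.00013 and 0.028. Without WT 7 and WT 13, the libraries farthest from the Adipoq median (72.5 and 259 CPM), r was 0.912 for Cfd, 0.916 for Plin1, 0.856 for Cidec, 0.89 for Retn, 0.667 for Lpl and 0.827 for Adrb3. With each group's mean subtracted it was 0.94, 0.932, 0.925, 0.928, 0.767 and 0.75 in the same order. Without lesional 2 and 11 it was 0.663 to 0.938 over these 6 genes, with adjusted p at most 0.0378 in the permutation test. Libraries with consecutive numbers in their labels tended to deviate together, although the labels do not tie them, so these p-values may be too small. With the means of each group and of each run of 3 consecutive numbers subtracted, r was 0.977 for Cfd, 0.946 for Plin1, 0.942 for Cidec, 0.957 for Retn, 0.796 for Lpl and 0.658 for Adrb3.

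Over the pooled libraries Fabp4, Lep and Pparg had a lower r with Adipoq. It was 0.326, 0.269 and -0.118, with adjusted permutation p-values of 0.323, 0.427 and 0.742, and 0.44, 0.42 and 0.369 with those means subtracted. Within WT, however, Fabp4 was lowest in WT 7 and highest in WT 13, as Adipoq was. The ratio of Fabp4 to Adipoq, CPM over CPM, was 2.15 in lesional 14 and 5.09 to 11.4 in the other 14 libraries. The ratio of Cfd to Adipoq, in contrast, stayed between 3.28 and 5.45 and that of Cidec between 0.494 and 0.821.

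Lesional 14 had the highest lesional level of Adipoq, Cfd, Cidec, Plin1, Retn and Adrb3 and at the same time the lowest of Fabp4, Lep and Pparg. Pparg was at 16.8, 22.4, 14.9, 19.7 and 1.46 CPM in lesional 2, 5, 8, 11 and 14. In lesional 14 this was 3 counts, for which the exact 95% Poisson interval of counting error alone is 0.619 to 8.77 counts or 0.301 to 4.27 CPM, while the other lesional libraries had 37 to 44 counts. The next lowest Pparg level of all 15 libraries was 4.92 CPM in WT 7. In the other groups Pparg was at 22.5, 12.3, 4.92, 24.1 and 17.6 CPM (WT 1, 4, 7, 10 and 13) and at 23.1, 15.8, 13.95, 26.4 and 9.67 CPM (non-lesional 3, 6, 9, 12 and 15). Its ratio to Adipoq ranged 38.9-fold over the libraries, against 1.66-fold for Cfd and for Cidec. Its total was 2165875 counts, within the range of the others, and 9.92% of its counts were mitochondrial, beside 7.42% to 11.5% in all libraries. Its endothelial marker score, a mean of log2 CPM, was 4.9, the highest of the lesional libraries, while lesional 2 and 11, with the next lowest Fabp4, had the lowest endothelial scores of all libraries (4.13 and 3.80). Of all libraries, lesional 14 had the highest skeletal muscle score (10.67). It had the lowest scores of keratinocyte markers (9.253) and of regulators of adipocyte differentiation (4.839). The part of these values in the result was not tested.

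**Figure D3:**
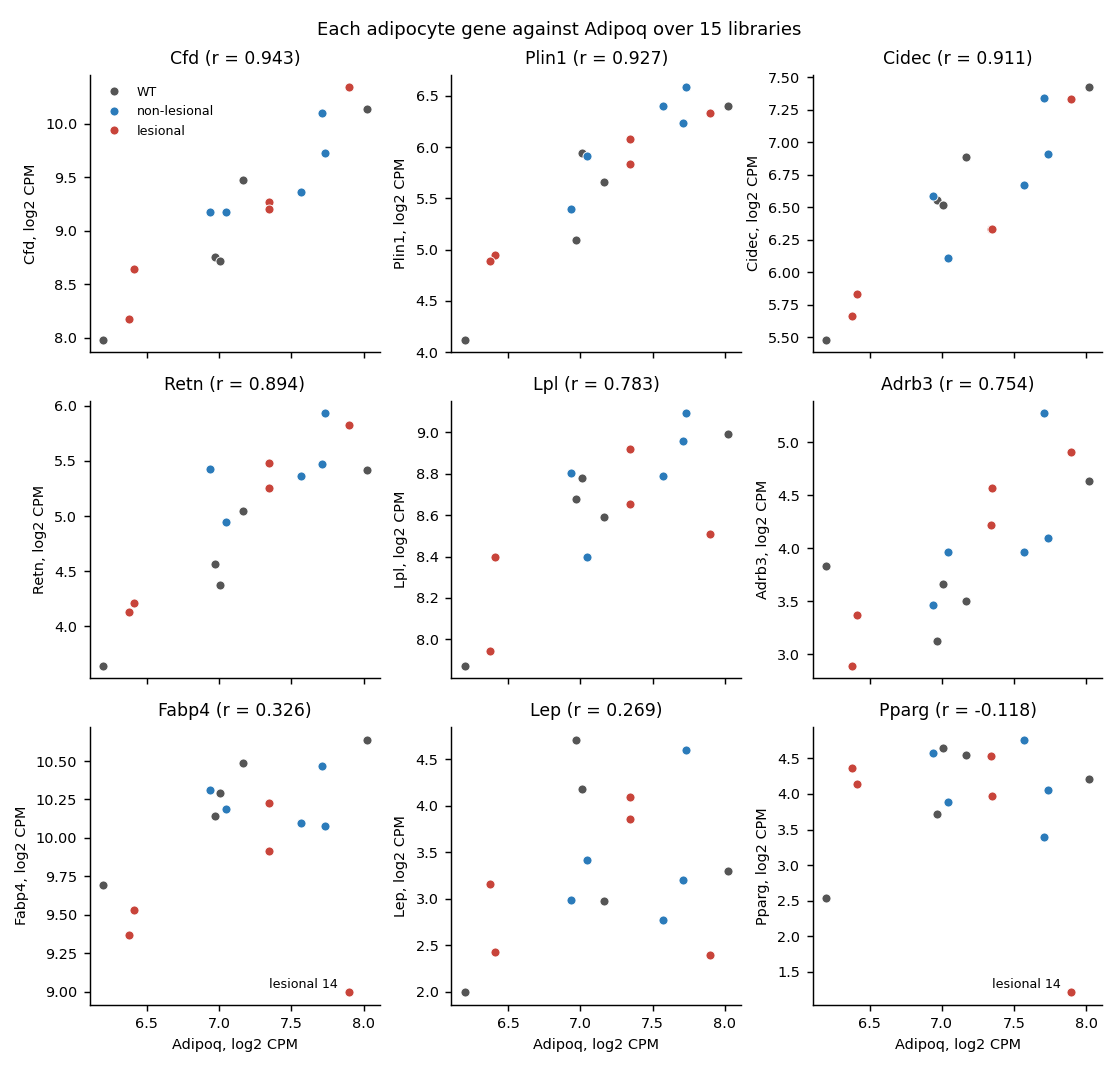
Log2 CPM of each of the 9 other genes (vertical axes) against log2 CPM of Adipoq (horizontal axes), one point per library, coloured by group, with Pearson's r over 15 libraries. Cfd, Plin1, Cidec and Retn rise along a line shared by all groups (r from 0.894 to 0.943), whereas lesional 14 lies far below the other libraries for Fabp4 and Pparg.

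Leptin had its own order of libraries in part. Lep was at 6.98, 25.4, 3.13, 17.3 and 8.98 CPM in WT 1, 4, 7, 10 and 13, at 7.10, 23.5, 9.85, 5.99 and 8.35 CPM in non-lesional 3, 6, 9, 12 and 15, and at 4.53, 16.3, 13.7, 8.07 and 4.38 CPM in lesional 2, 5, 8, 11 and 14. WT 4, with the most leptin, had only 124 CPM of Adipoq, and lesional 14, with 237 CPM of Adipoq, had little leptin. The ratio of Lep to Adipoq ranged 11.1-fold, from 0.0184 in lesional 14 to 0.204 in WT 4.

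Lesional 2 and 11 were the lowest lesional libraries for 7 of the 10 genes, namely Adipoq, Adrb3, Cfd, Cidec, Lpl, Plin1 and Retn. Adiponectin was at 84.3 and 82.2 CPM there and at 162 to 237 CPM in lesional 5, 8 and 14. WT 7, with the lowest mean log2 CPM of the 10 genes, did not share their epidermal markers: its hyperplasia score, the mean log2 CPM of keratins and other genes of thickened epidermis, was 3.43, beside 10.03 and 11.6 in lesional 2 and 11 and 2.61 to 6.46 in the other 13 libraries. The neutrophil score was 8.48 and 9.73 in lesional 2 and 11 and 1.30 to 5.18 in the others. It rests on 3 of 7 genes, S100a8, S100a9 and Mmp9, of which S100a8 and S100a9 are also made by inflamed keratinocytes. The neutrophil receptor Csf3r and surface marker Ly6g were at 0 counts in all libraries, and Cxcr2 at 0 to 11 counts. The skeletal muscle score was 7.51 in lesional 11 and 9.27 to 10.7 in the 14 others, and the endothelial score was 4.13 and 3.80 in lesional 2 and 11 and 4.43 to 4.95 in the others. The part of muscle, vessel and epidermal content in the adipocyte levels was not tested.

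Among marker lists, the keratinocyte score had an r of -0.699 with Adipoq (rho = -0.671, permutation p = 0.00314, adjusted p = 0.00816). It was -0.812 without WT 7 and 13, -0.696 with group means subtracted, and -0.52 without lesional 2 and 11 (adjusted p = 0.148). The hyperplasia score had r = -0.585 (rho = -0.443, permutation p = 0.0191, adjusted p = 0.0412) and r = -0.183 without lesional 2 and 11 (adjusted p = 0.724). That relation rests on those libraries. The neutrophil score (r = -0.518, adjusted p = 0.0786), the endothelial score (r = 0.557, adjusted p = 0.0536), and the sebaceous (r = -0.454, adjusted p = 0.142), erythrocyte (r = 0.379, adjusted p = 0.247), muscle (r = 0.368, adjusted p = 0.268), macrophage (r = 0.143, adjusted p = 0.727) and hair follicle scores (r = -0.0554, adjusted p = 0.852) did not pass in the permutation test. The macrophage score had r = 0.668 without lesional 2 and 11 (adjusted permutation p = 0.0378) and r = -0.253 without WT 7 and 13, so its sign depended on the libraries kept. The hair follicle score is the 1 gene that passed the filter, Tchh, which was at 965 CPM in WT 1. CPM are shares of one total, so scores of abundant genes and of other genes are not independent.

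**Figure D4:**
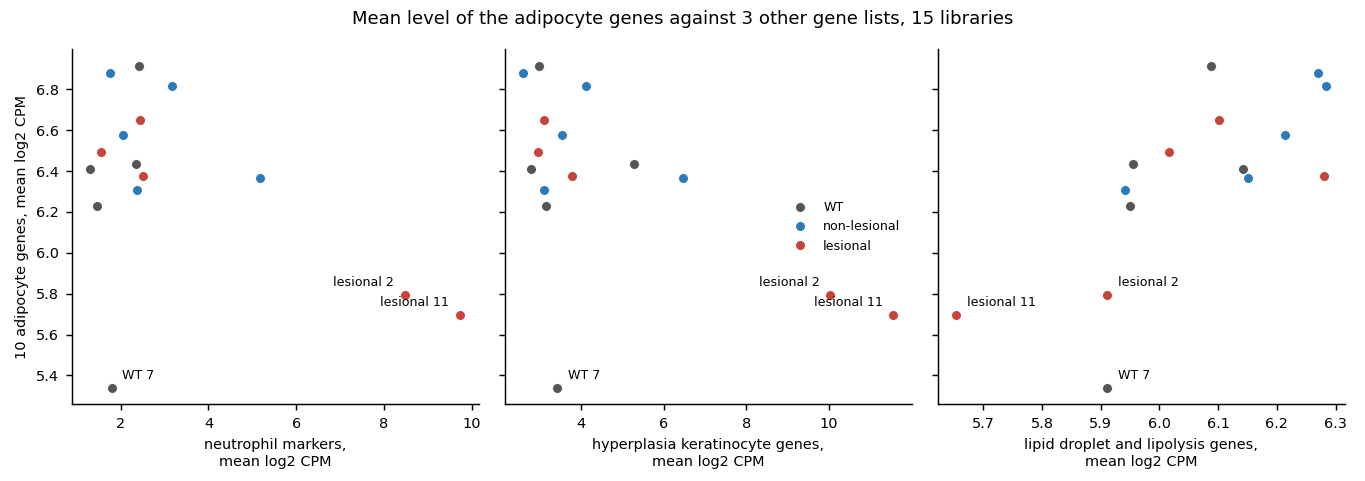
Mean log2 CPM of the 10 adipocyte genes (vertical axis) against the mean log2 CPM of neutrophil markers, of hyperplasia genes, and of lipid droplet and lipolysis genes (horizontal axes), one point per library. Lesional 2 and 11 have low adipocyte levels with high neutrophil and hyperplasia scores, and WT 7 has the lowest adipocyte mean without them.

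Other genes of the fat cell were read from lists. The counts past an unadjusted p of 0.05 given for them stand beside 1.85% of all genes higher and 1.31% lower for non-lesional against WT skin, 3.24% and 1.56% for lesional against WT skin, and 2.89% and 1.33% for lesional against non-lesional skin. Of 22 genes of the lipid droplet, lipolysis and triglyceride synthesis, 20 were tested between non-lesional and WT skin. Of these, 17 lay above 0 with a median of 0.17, and none had an unadjusted p under 0.05. Gpd1, which supplies the glycerol backbone, was at 101 ± 22.4 against 73.7 ± 25.1 CPM (SD, n = 5), and G0s2, an inhibitor of adipose triglyceride lipase, at 36.9 ± 11.7 against 23.6 ± 10.2 CPM. Between lesional and WT skin, Abhd5, the activator of the same lipase, had a higher mean (74.3 ± 21.7 against 54.4 ± 11 CPM, unadjusted p = 0.0476, adjusted p = 0.9256, edgeR). Its difference was 0.18 on the log2 scale without lesional 2 and 11 (unadjusted p = 0.356, edgeR). The other 18 of 19 tested did not pass, and 11 of 19 lay above 0, or 17 of 19 without lesional 2 and 11. Against non-lesional skin 8 of 19 lay above 0 and none passed. The score of this list followed Adipoq (r = 0.776, rho = 0.729, permutation p = 0.00053, adjusted p = 0.00256), also without lesional 2 and 11 (r = 0.692) and without WT 7 and 13 (r = 0.854).

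Of 11 genes of insulin response and glucose uptake, 10 lay below 0 between lesional and WT skin with a median of -0.26. With lesional 2 and 11 left out 3 of 11 lay above 0 and the median was -0.0646. Against non-lesional skin 5 of 11 then lay above 0, and Car3, a carbonic anhydrase of fat and muscle named here after its value was seen, was higher by 0.38 (unadjusted p = 0.0408, adjusted p = 0.9925, edgeR). With all libraries, Irs2, an insulin receptor substrate, had a lower mean in lesional than in WT skin (38.5 ± 4.3 against 50.0 ± 8.87 CPM, unadjusted p = 0.0358, adjusted p = 0.9256, edgeR). Without lesional 2 and 11 Irs2 differed from WT by -0.42 on the log2 scale (unadjusted p = 0.0421, edgeR). Pck1, an enzyme of glycerol synthesis in fat, was at 31.0 ± 12.8 CPM in lesional and 52.5 ± 29.2 CPM in WT skin. Against non-lesional skin 9 of 11 lay below 0, and 8 of 11 did so between non-lesional and WT skin, with none past an unadjusted p of 0.05. The score followed Adipoq (r = 0.76, adjusted permutation p = 0.00256).

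The 12 regulators of adipocyte differentiation had no member past an unadjusted p of 0.05 in any comparison, with 7, 6 and 4 of 12 above 0 for non-lesional and lesional against WT and lesional against non-lesional skin. Cebpb was at 62.0 ± 40.2 CPM in lesional, 41.0 ± 6.63 in non-lesional and 38.7 ± 8.38 CPM in WT skin. The higher lesional mean rests on lesional 2 and 11. Without them the log2 difference of Cebpb went from 0.679 to -0.115 against WT and from 0.592 to -0.195 against non-lesional skin. The score of the 12 regulators did not follow Adipoq (r = 0.132, adjusted permutation p = 0.728).

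Among 13 adipokines and partners of factor D, 11 were tested. C3, the complement protein on which the factor D pathway acts, had a higher mean in lesional than in WT skin (46.6 ± 11.5 against 33.2 ± 9.62 CPM, unadjusted p = 0.045, adjusted p = 0.9256, edgeR). Agt, angiotensinogen, had a higher mean in non-lesional than in WT skin (34.5 ± 10 against 23.5 ± 8.41 CPM, unadjusted p = 0.0418, adjusted p = 0.9998, edgeR). Sfrp5, a secreted Wnt antagonist, had a lower mean in lesional than in non-lesional skin (12.1 ± 7.86 against 22.8 ± 4.36 CPM, unadjusted p = 0.0308, adjusted p = 0.9725, edgeR). None passed the correction. With lesional 2 and 11 left out the log2 difference was 0.62 for C3 (unadjusted p = 0.0152) and -0.53 for Sfrp5 (unadjusted p = 0.0937) in edgeR's test. Retnla, a resistin relative named here after its value was seen, then differed by -0.54 from WT (unadjusted p = 0.0212, adjusted p = 0.9994, edgeR). Of the 11 tested, 6 lay above 0 in each comparison. The score had r = 0.651 with Adipoq (adjusted permutation p = 0.0192), and 0.386 without WT 7 and 13, so that the relation rests on those libraries.

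Of 8 receptors of adipokines and catecholamines, 5 were tested and none passed an unadjusted p of 0.05. Lepr, the leptin receptor, was at 12.4 ± 6.62, 12.2 ± 6.48 and 8.51 ± 2.89 CPM in lesional, non-lesional and WT skin. It differed by 0.97 on the log2 scale from WT without lesional 2 and 11 (unadjusted p = 0.00486, adjusted p = 0.9994, edgeR). The receptor score had r = 0.75 with Adipoq (adjusted permutation p = 0.00433) and 0.627 without lesional 2 and 11 (adjusted p = 0.0607). Of 8 genes of fatty acid uptake, 7 lay below 0 between lesional and WT skin. The exception was Fabp5, the epidermal relative of Fabp4, at 192 ± 276 against 29.3 ± 7.9 CPM (unadjusted p = 0.0269, adjusted p = 0.9256, edgeR). Fabp5 differed by -0.255 on the log2 scale without lesional 2 and 11 (unadjusted p = 0.304), so the higher mean rests on those libraries. Against non-lesional skin it then differed by -0.71 (unadjusted p = 0.00837, adjusted p = 0.9925, edgeR). Cd36, the fatty acid translocase, was at 96.7 ± 23.0 against 121 ± 15.1 CPM and did not pass. This score did not follow Adipoq (r = 0.14, adjusted permutation p = 0.727).

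Of 8 thermogenic genes 7 were tested, and Elovl3, which hair follicle and sebaceous cells also express, had a higher mean in lesional than in WT skin (30.6 ± 25.8 against 13.4 ± 4.57 CPM, unadjusted p = 0.0394, adjusted p = 0.9256, edgeR). The difference was 0.11 on the log2 scale without lesional 2 and 11 (unadjusted p = 0.735). The thermogenic score did not follow Adipoq (r = -0.0739, adjusted permutation p = 0.823). Of 13 genes of adipose precursors and dermal fibroblasts, Ly6a had a higher mean (267 ± 118 against 162 ± 39.9 CPM, unadjusted p = 0.0213) and Dpp4 a lower one in lesional than in WT skin (23.9 ± 2.98 against 34.6 ± 13.1 CPM, unadjusted p = 0.0343), with an adjusted p of 0.9256 for both in edgeR's test. The Dpp4 mean was also below that of non-lesional skin (37.5 ± 13.6 CPM, unadjusted p = 0.0171, adjusted p = 0.9725, edgeR). None of these passed without lesional 2 and 11: Ly6a differed by 0.27 (unadjusted p = 0.221), and Dpp4 by -0.47 from WT (unadjusted p = 0.0963) and by -0.57 from non-lesional skin (unadjusted p = 0.051). Their score had r = 0.589 with Adipoq (adjusted permutation p = 0.0412) and 0.392 without lesional 2 and 11.

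Lists of other cell types were read in the same fits. Between lesional and WT skin, 3 of 9 keratinocyte, 2 of 2 hyperplasia, 2 of 9 macrophage and 1 of 1 neutrophil genes tested were higher at an unadjusted p under 0.05, and 1 of 8 sebaceous genes was lower, beside 3.24% of all genes higher and 1.56% lower. These counts were, without lesional 2 and 11, 0 of 9, 0 of 2, 1 of 9, 0 of 1 and 0 of 8, beside 1.42% higher and 1.51% lower. With all libraries in the fit no endothelial gene of 8, no muscle gene of 13 and no erythrocyte gene of 4 passed. With lesional 2 and 11 left out 1 of 4 erythrocyte genes was higher than in WT, Hbb-bt, a beta globin (0.62 on the log2 scale, unadjusted p = 0.0407, adjusted p = 0.9994, edgeR), a gene named after its value was seen. Between non-lesional and WT skin, the hair gene Tchh alone passed in these lists (27.9 ± 5.24 against 228 ± 413 CPM, unadjusted p = 0.0387, adjusted p = 0.9998, edgeR). Tchh was at 965 CPM in WT 1, 105 in WT 13 and 21.0 to 29.3 in the other WT libraries. Against non-lesional skin, 1 of 9 keratinocyte, 2 of 3 hyperplasia, 2 of 9 macrophage and 1 of 1 hair follicle genes were higher in lesional skin (2.89% of all genes). The counts without lesional 2 and 11 were 0 of 9, 0 of 4, 0 of 9 and 0 of 2 (1.47%), and 1 of 9 macrophage genes, Adgre1, was lower at an unadjusted p under 0.05 (2.04%). The endothelial gene Cldn5, at 2.88 ± 0.314 CPM in non-lesional skin, passed the filter in this comparison only with those libraries left out, so its difference is not given.

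Outside the 10 genes, those whose log2 CPM was most like the mean of the 10 over the 15 libraries, of 13461 genes ranked, were Pde3b (r = 0.894), the phosphodiesterase through which insulin restrains lipolysis, and Prkar2b (r = 0.893), the regulatory subunit of protein kinase A in fat. Agt (0.885), Cdo1 (0.879), Thrsp (0.85), Serpina3c (0.848), AW549877 (0.844), Mfng (0.843), Tceal1 (0.824), Sqor (0.82), Acvr1c (0.816), Mmd (0.816), Ghr (0.806), Cyp2f2 (0.801) and Taf6 (0.8) followed. In the same ranking, where each of the 10 genes also enters the mean it is compared with, Lpl, Plin1 and Adipoq took the first places. Retn was at rank 8, Cidec at 13 and Cfd at 14, whereas Fabp4 was at 351, Adrb3 at 427, Lep at 879 and Pparg at 3762. These likenesses are descriptions, and the part of tissue content in them was not tested.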

How the data were processed

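Skin RNA of 15 libraries was measured. The authors prepared QuantSeq 3′ FWD libraries, clipped them with cutadapt 2.10, aligned them with Subread to GRCm38 and spike-in sequences, filtered matches with SAMtools 1.7-2, and deposited raw counts per gene from featureCounts 2.0.1 over exons. A match over several genes was counted for each. The annotation release and strand setting are not given in the sources used here. The deposited CPM were not used, and the 92 spike-in rows, with 0 counts, were left out.

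Each pair of groups was fitted with edgeR 4.0.16 (R 4.3.3): filterByExpr, TMM, robust quasi-likelihood F-test, Benjamini-Hochberg adjustment over all genes tested, threshold 0.05. A standard error is the log2 fold change over the square root of F. The exact permutation test was two-sided on log2 CPM (prior count 2) over 252 assignments, with a smallest p of 0.0079. CPM are TMM-normalised. Relations with Adipoq used SciPy 1.17.1, with list scores as means of log2 CPM over genes passing the filter. The scripts were tested on simulated data.

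The 10 genes and the 17 other lists (regulators, lipid droplet, fatty acid uptake, insulin response, adipokines, receptors, thermogenic, precursor, endothelial, macrophage, neutrophil, muscle, hair follicle, sebaceous, keratinocyte, hyperplasia, erythrocyte) were chosen with earlier results of these data known. Named are all 10 genes, at most 3 of each list with the smallest unadjusted p, defining markers needed for a cell type, and the 15 genes most like the mean of the 10. Krt85 and Hbb-bs were not analysed here. Alternatives were DESeq2 1.42.0, voomWithQualityWeights of limma 3.58.1, other normalisations and filters, 1 fit of all libraries, non-robust estimation, each library left out, and lesional 2 and 11 left out. Those chosen after seeing the data were consecutive label numbers as a block, and list genes without lesional 2 and 11. Lesional 2 and 11 were themselves singled out by their marker levels in these same data. Replicates of a group differed by at least 3.81 chi-square units per gene, more than counting error alone gives. This does not show that they came from separate mice, and each was counted as a separate sample. Counting intervals cover counting error only, since PCR copies were not removed.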

Additional observations from a re-analysis of the deposited data

Results flagged for a closer look

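In 3 of 81 groups of 5 libraries (10 genes and 17 list scores in 3 groups), one library lay far from the other 4 by Dixon's gap test, and chance alone gives about 1 in 20. Pparg was at 1.46 CPM in lesional 14 and at 14.9 to 22.4 CPM in the other lesional libraries, a gap of 0.83 of the whole range. The macrophage score was 5.781 in non-lesional 15 and 5.34 to 5.47 in the other non-lesional libraries. The hyperplasia score was 5.286 in WT 1 and 2.80 to 3.43 in the other WT libraries. WT 1 was also the library with 965 CPM of the hair gene Tchh.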

How the results depend on the processing

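With edgeR's quasi-likelihood test 0 genes passed an adjusted p of 0.05 in each comparison. Between non-lesional and WT skin, DESeq2 called 1 gene, the fit without a filter on low counts called 18, and leaving out 1 library at a time gave 0 to 5, the 5 without non-lesional 6. Between lesional and WT skin DESeq2 called 14. Fabp4 in both lesional comparisons and Retn between non-lesional and WT skin kept their direction in every alternative run. Differences that had not passed the threshold changed sign, none passing it afterwards, and the cause was not tested. On the log2 scale, lesional against WT became 0.0026 with DESeq2 for Adipoq, and with voomWithQualityWeights 0.17 for Adipoq, 0.0325 for Lep, 0.0814 for Lpl and 0.0471 for Pparg. With the same weights non-lesional against WT was 0.0312 for Fabp4, and lesional against non-lesional 0.0202 for Lep and 0.0095 for Adrb3. Without lesional 2 and 11, lesional against WT was 0.35 for Adipoq, 0.0724 for Lpl and 0.0341 for Cidec, and lesional against non-lesional was 0.12 for Adipoq, 0.0767 for Retn, 0.0688 for Lep, 0.15 for Cfd and 0.32 for Adrb3. In the same setting r with Adipoq became -0.0952 for the regulator score, 0.0499 for the neutrophil score, -0.0125 for the muscle score and 0.17 for the hair follicle score. Leaving out 1 library at a time, signs changed between non-lesional and WT skin for Lep (-0.65 to 0.26), Cidec (-0.12 to 0.33), Fabp4 (-0.17 to 0.0565) and Pparg (-0.10 to 0.30). They changed between lesional and WT skin for Adipoq (-0.25 to 0.31), Lep (-0.67 to 0.0415), Cfd (-0.31 to 0.48), Plin1 (-0.12 to 0.38), Lpl (-0.25 to 0.0085) and Pparg (-0.35 to 0.16). Between lesional and non-lesional skin they changed for Lep (-0.50 to 0.26), Pparg (-0.43 to 0.0425) and Adrb3 (-0.38 to 0.30). The groups share no replicate number, so no pairing comes from the labels. The deviations from group means of libraries with consecutive numbers had a median correlation of 0.18 over 15 pairs (-0.0926 to 0.35, 12 of them over 0.1), against -0.0539 over the 60 other pairs, and 12 of 15 libraries correlated best with one of their own run of 3, a hint from the data and not from the design. A fit with these runs as a replicate block, chosen after seeing the data, called 8 genes between non-lesional and WT skin and 0 in each of the other comparisons, and no adipocyte gene. In it Retn differed by 0.79 (adjusted p = 0.371), and it was higher in the non-lesional than in the WT library of 5 of 5 runs. With Lpl and Adrb3, 3 of 10 adipocyte genes were higher at an unadjusted p under 0.05, beside 3.26% of all genes, and Cidec joined Fabp4 as lower between lesional and non-lesional skin, 2 of 10 beside 2.37%. At 1962604 to 2567138 counts per library, Lep and Pparg rest on few counts, which limits their precision.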
